A study of Caenorhabditis elegans with 5 samples.

Results

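The genes described here are 10 regulators through which the nematode Caenorhabditis elegans reads its food supply, out of 45461 gene identifiers in the deposited tables. They were taken by identifier, with no threshold on a measured value. They are daf-2 (Y55D5A.5), age-1 (B0334.8) and daf-16 (R13H8.1) of the insulin pathway, let-363 (B0261.2), daf-15 (C10C5.6) and rsks-1 (Y47D3A.16) of the TOR pathway, the kinase gene aak-2 (T01C8.1), and the transcription factor genes nhr-49 (K10C3.6), pha-4 (F38A6.1) and skn-1 (T19E7.2). All 10 were found in each of the 5 tables, and all 10 passed the minimum mean of 50 normalized reads in every comparison. RNA was sequenced from whole worms kept at 20 °C, with 1 library per group, each made from about 3000 animals pooled over 2 experiments. In 3 groups the animals ate bacteria that make double-stranded RNA against gld-1, a germline RNA-binding protein without which germ cells return to mitosis and form a tumour. Of these, the fasted group was moved on day 2 of adulthood to plates without bacteria for 48 h, the fed group was moved on day 2 to L4440 bacteria for 48 h, and both are labelled as day 4. The gld-1 RNAi group was collected on day 3. Animals of the control group (day 3) and of the young adult group (day 1) lived on L4440 bacteria, whose RNAi vector is empty. The labels disagree on whether gld-1 RNAi began in larvae or after the first adult day, and they name no strain.

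As background, insulin-like peptides bind the receptor DAF-2, which acts through the phosphoinositide 3-kinase AGE-1 and the AKT kinases to keep the FOXO factor DAF-16 out of the nucleus. The TOR kinase LET-363 with its partner DAF-15 drives growth and translation when amino acids are plentiful, in part through the S6 kinase RSKS-1, while AMP-activated protein kinase (AMPK), whose catalytic subunit is AAK-2 or AAK-1, answers to low energy. NHR-49, PHA-4, SKN-1 and DAF-16 are the transcription factors through which fasting, dietary restriction or reduced insulin signalling change gene expression and lifespan. Most of this control acts on the proteins, through phosphorylation and localization, and was not measured here.

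With a lone library per group there is no replicate check and no test: each value below is a level or a difference between 2 libraries, and the 95% intervals cover counting error only. The gene totals ran from 13803289 reads in the fasted to 27598482 in the gld-1 RNAi library. Ribosomal RNA took 25.4% to 27.8% of the reads in 4 libraries and 3.51% in the young adult library, so values against the young adult depend most on the scaling. On a common scale over the 5 libraries the RNAi target gld-1 stood at 1592 normalized reads in the fasted, 3061 in the fed and 1994 in the gld-1 RNAi library, against 20340 in the control and 17593 in the young adult library. Tissue markers moved with the groups. In gld-1 RNAi over control, 15 of 15 oocyte markers were at least 1.5-fold lower (summed values 190060 in gld-1 RNAi and 542175 in control), beside 19.3% of all genes. In the same comparison 10 of 15 measured neuronal markers were at least 1.5-fold higher, beside 16.8% of all genes. Fasted over fed, 11 of 15 oocyte markers were higher (summed values 166351 in fasted and 106546 in fed), beside 4.08% of all genes. Of 13 measured body wall muscle markers 6 were lower (25333 in fasted and 35747 in fed), beside 7.37% of all genes. Against the young adult, 13 of 13 measured body wall muscle markers and 8 of 10 measured hypodermal markers were lower in the control library. There 15 of 15 oocyte markers were higher, and of all genes 33% were lower and 33.6% higher. Log2 folds of the germline markers ran from 0.18 to 1.57 in control over young adult. They ran from -0.14 to 2.07 in gld-1 RNAi over young adult. In gld-1 RNAi over control they ran from -1.12 to 1.49. Among the muscle markers hlh-1 had no read in any library. In RNA from whole animals, fewer cells of a type and less RNA per cell cannot be told apart, and the part of these shifts in the values below was not tested.

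The insulin arm began with the receptor. daf-2 stood at 7044 normalized reads in the fasted, 5861 in the fed, 6043 in the gld-1 RNAi, 6710.1 in the control and 2051 in the young adult library. The young adult library was the low one, and the other 4 lay close together. Its log2 fold was 1.67 in the gld-1 RNAi over the young adult library (95% counting interval 1.60 to 1.75), a 3.19-fold difference that 5.64% of all measured genes equalled or exceeded. In the control over the young adult library it was 1.71 (1.64 to 1.78), and in the gld-1 RNAi over the control library it was -0.10 (-0.14 to -0.05). daf-2 was therefore higher in both day 3 libraries than in the day 1 library, which came from animals on control food. There is no day 1 library of gld-1 RNAi animals, so age and RNAi cannot be told apart in the value of 1.67. Within a library, and so free of any scaling between libraries, daf-2 held 18.4% of the reads of the 10 regulators in the fasted, 17.4% in the fed, 18.3% in the gld-1 RNAi and 18.6% in the control library, against 10.1% in the young adult library (exact binomial interval 9.67% to 10.5%).

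The kinase gene age-1, directly below the receptor, stood at 2377 normalized reads in the fasted, 1908 in the fed, 1955 in the gld-1 RNAi, 2792.0 in the control and 1348 in the young adult library. It was highest in the control: the log2 fold was -0.46 in the gld-1 RNAi over the control library (-0.54 to -0.39) and 1.05 in the control over the young adult library (0.95 to 1.15). Fasted over fed it was 0.34 (0.25 to 0.44), a 1.27-fold difference. The FOXO gene daf-16 had another order, with 4675 normalized reads in the fasted, 4513 in the fed, 3820.1 in the gld-1 RNAi, 3314 in the control and 2675 in the young adult library. All 3 libraries of gld-1 RNAi animals lay above both libraries of control animals. The log2 fold of daf-16 was 0.26 in the gld-1 RNAi over the control library (0.20 to 0.32), 0.22 in the fed over the gld-1 RNAi library (0.16 to 0.27), 0.27 in the fasted over the gld-1 RNAi library (0.20 to 0.34) and 0.08 in the fasted over the fed library (0.01 to 0.14). None of these reached 1.5-fold. Counts are per gene and sum all daf-16 transcripts, so isoforms of the gene were not told apart.

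**Figure D1:**
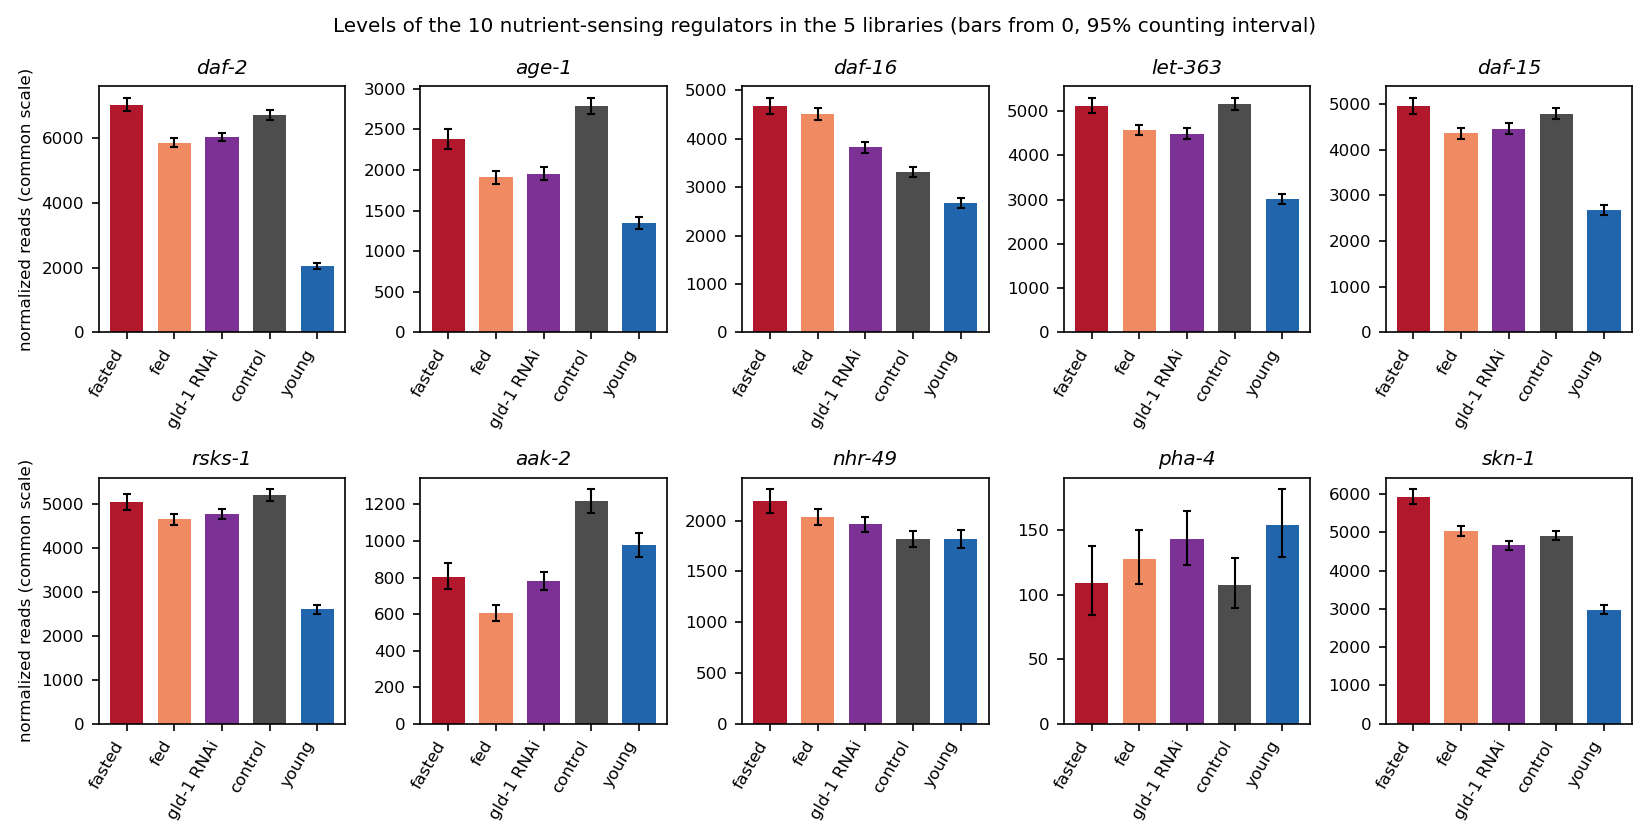
Levels of the 10 regulators in normalized reads on a common scale over the 5 libraries (bars from 0, 1 library each), with 95% counting intervals. daf-2, let-363, daf-15, rsks-1 and skn-1 are lowest in the young adult library, aak-2 is highest in the control library, and pha-4 is low throughout.

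The 3 TOR genes had similar profiles, low in the young adult library. let-363, the TOR kinase, stood at 5119 normalized reads in the fasted, 4572 in the fed, 4488 in the gld-1 RNAi, 5158 in the control and 3011 in the young adult library. daf-15, the Raptor homolog that gives TOR complex 1 its substrates, stood at 4966 in the fasted, 4364 in the fed, 4463 in the gld-1 RNAi, 4796 in the control and 2683 in the young adult library. rsks-1, the S6 kinase, stood at 5044 in the fasted, 4654 in the fed, 4774 in the gld-1 RNAi, 5207 in the control and 2608 in the young adult library. Each was lowest in the young adult library, and the other 4 libraries differed little. The gld-1 RNAi over young adult log2 folds were 0.69 for let-363 (0.62 to 0.76), 0.85 for daf-15 (0.78 to 0.92) and 0.99 for rsks-1 (0.92 to 1.05). Fasted over fed, let-363 was at 0.19 (0.13 to 0.25), daf-15 at 0.21 (0.15 to 0.28) and rsks-1 at 0.14 (0.08 to 0.21). Gld-1 RNAi over control, the interval of daf-15 spanned 0 (-0.05, interval -0.10 to 0.00), and let-363 was at -0.15 and rsks-1 at -0.07. As the Euclidean distance between log2 profiles over the 5 libraries, each centred on its mean, let-363 and daf-15 were the closest pair among the 10 regulators (0.12), followed by daf-15 and rsks-1 (0.13). The next pair was daf-15 and skn-1 (0.19), ahead of let-363 and rsks-1 (0.22), let-363 and skn-1 (0.23) and rsks-1 and skn-1 (0.28), so a profile of this kind was not limited to the TOR genes. These are descriptions over 5 points that share the scaling.

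The AMPK catalytic gene aak-2 departed from this profile. It stood at 804 normalized reads in the fasted, 606 in the fed, 781 in the gld-1 RNAi, 1218 in the control and 978 in the young adult library, so that all 3 libraries of gld-1 RNAi animals lay below both libraries of control animals. Gld-1 RNAi over control, the log2 fold of aak-2 was -0.59 (-0.71 to -0.47), 0.67 of the control level. This was the only member past 1.5-fold in that comparison, by a margin so small that the 3 other scalings (-0.46, -0.45 and -0.50) and a pseudocount of 10 (-0.58) put it short of that fold. Fed over gld-1 RNAi it was -0.39 (-0.53 to -0.25) and fasted over fed 0.43 (0.27 to 0.60), a 1.35-fold difference that 7.41% of measured genes equalled or exceeded. The other catalytic gene, aak-1 (PAR2.3), went the other way, with 1833 normalized reads in the gld-1 RNAi and 1111 in the control library (log2 fold 0.72, interval 0.61 to 0.83). The ratio of aak-1 to aak-2 within a library, per kilobase of exon and independent of scaling, was 2.21 in the fasted (1.99 to 2.47), 2.69 in the fed (2.47 to 2.94) and 1.96 in the gld-1 RNAi library (1.82 to 2.12), against 0.791 in the control (0.730 to 0.857) and 1.15 in the young adult library (1.05 to 1.26). The 3 libraries of gld-1 RNAi animals lay above both others, with intervals apart. This ratio and the share of daf-2 above were chosen after the values were seen. The aak-2 locus overlaps the neuronal channel gene mec-4 on the opposite strand, and no source used here gives the strandedness of the counting, so reads of the pair may not be told apart.

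**Figure D2:**
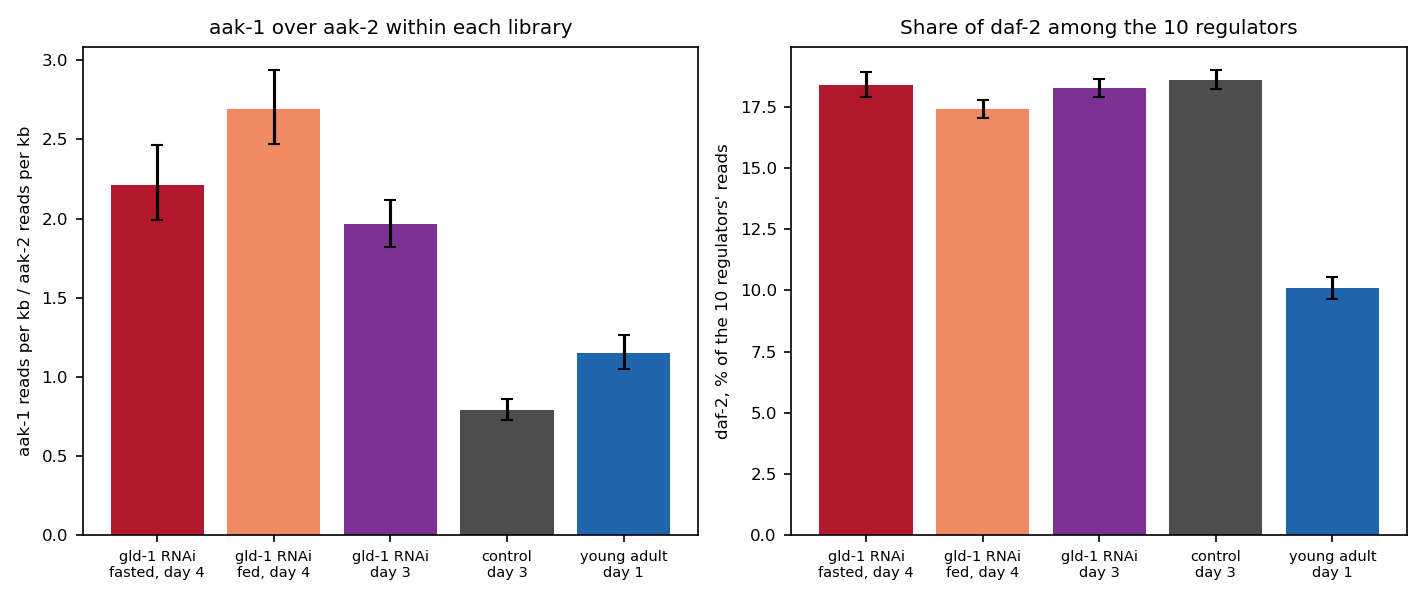
Ratio of aak-1 to aak-2 reads per kilobase of exon (left) and daf-2 as a percentage of the reads of the 10 regulators (right) in each library, with exact 95% counting intervals. The ratio lies between 1.96 and 2.69 in the libraries of gld-1 RNAi animals, above the control (0.791) and the young adult (1.15), and the daf-2 share is 10.1% in the young adult library.

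Of the transcription factors besides daf-16, nhr-49, a nuclear receptor that switches on fat oxidation during fasting, was the steadiest of the 10 on the common scale. It stood at 2189.7 normalized reads in the fasted, 2033 in the fed, 1963 in the gld-1 RNAi, 1819.7 in the control and 1822 in the young adult library, a range of 1.20-fold. Its log2 fold was 0.13 in the fasted over the fed (0.04 to 0.23) and 0.16 in the gld-1 RNAi over the control library (0.08 to 0.25). In the gld-1 RNAi over the young adult library it was 0.22, but -0.20 when scaled to equal total reads. skn-1, the Nrf-family factor of oxidative stress and dietary restriction, stood at 5929.8 in the fasted, 5035 in the fed, 4665 in the gld-1 RNAi, 4915 in the control and 2976 in the young adult library, with the fasted library highest. The log2 fold of skn-1 was 0.26 in the fasted over the fed (0.20 to 0.32), 0.32 in the fasted over the gld-1 RNAi (0.26 to 0.38) and 0.76 in the gld-1 RNAi over the young adult library (0.70 to 0.83). pha-4, the FoxA factor of the pharynx and gut that dietary restriction needs to extend lifespan, was the scarcest member, at 109 normalized reads in the fasted, 128 in the fed, 143 in the gld-1 RNAi, 107 in the control and 154 in the young adult library. It rested on 68 to 186 reads. Its interval spanned 0 in the fasted over the fed library (-0.21, interval -0.64 to 0.21), so no difference was detectable at this depth, and gld-1 RNAi over control it was at 0.46 (0.13 to 0.80).

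Per kilobase of exon, the members can be set against each other as levels. skn-1 led in 4 libraries, with 2003 normalized reads per kilobase in the fasted, 1701 in the fed, 1576 in the gld-1 RNAi and 1005 in the young adult library, and in the control rsks-1 (1707) and skn-1 (1660.4) had overlapping intervals, as they did in the gld-1 RNAi library. rsks-1, daf-16 and nhr-49 came next in the fasted, fed and gld-1 RNAi libraries, in that order and with intervals apart. daf-15 and daf-2 followed and overlapped in these 3 libraries and in the control. let-363 and age-1 overlapped in the fasted, gld-1 RNAi and young adult libraries. aak-2 came before the last in 4 libraries (249 to 501 normalized reads per kilobase), and pha-4 was last in all 5 (49.8 to 71.2). daf-2 changed place most: at 247 per kilobase it was next to last in the young adult library, and at 809 it lay among the middle members in the control. Exon length was the union of all annotated exons, which understates genes with alternative ends.

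The members were then set beside all genes that passed the minimum mean. In the gld-1 RNAi over the control library, 1 of 10 members (aak-2) was at least 1.5-fold apart, where 36.1% of 9791 genes were, and the median log2 fold was -0.06 over the members and -0.10 over all genes. Fasted over fed, 0 of 10 members were at least 1.5-fold apart, where 11.5% of 8991 genes were. Small differences there lay on the same side: 9 of 10 members were above 0, where 56% of all genes were, with counting intervals wholly above 0 for the same 9 (30% of all genes) and pha-4 as the exception, and the median was 0.20 over the members and 0.04 over all genes. In the fasted over the gld-1 RNAi library, 0 of 10 were at least 1.5-fold apart (9.14% of 9100 genes), and the members' median was 0.15 against 0.01 over all genes. In the fed over the gld-1 RNAi library, 0 of 10 were at least 1.5-fold apart (3.68% of 9895 genes), with a median of -0.06 against -0.02. These comparisons share libraries, so their values are not independent of each other.

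In gld-1 RNAi over young adult, 7 of 10 members were higher by 1.5-fold or more, where 31.6% of 10795 genes were, and 0 were lower, where 30.7% were (62.2% in either direction). The 7 were daf-2, age-1, daf-16, let-363, daf-15, rsks-1 and skn-1, and the median was 0.67 over the members and 0.12 over all genes. In the control over the young adult library, on the common scale, 6 of 10 were at least 1.5-fold higher, where 33.6% of 10480 genes were, again with 0 lower, where 33% were (66.6% in either direction). These were the same genes without daf-16 (0.31, interval 0.23 to 0.38). Scaled to equal total reads, rRNA included, both counts came to 1 higher member and 1 lower, and the median of all genes lay at -0.33 and -0.37. daf-2 was the higher member under that scaling, at 1.25 and 1.21, while aak-2 (-0.63) and pha-4 (-1.01) were the lower ones. Scaled to totals without rRNA, gld-1 RNAi over young adult had 6 higher members, and control over young adult had 6 higher and 1, pha-4 (-0.59), lower. At 2-fold, 0 of 10 members were apart in gld-1 RNAi over control, where 17% of all genes were, 1 in gld-1 RNAi over young adult (41.2%) and 2, daf-2 and age-1, in control over young adult (41.9%). The authors' deposited table gave an adjusted p of 1 for all 10 members in all 5 tables.

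**Figure D3:**
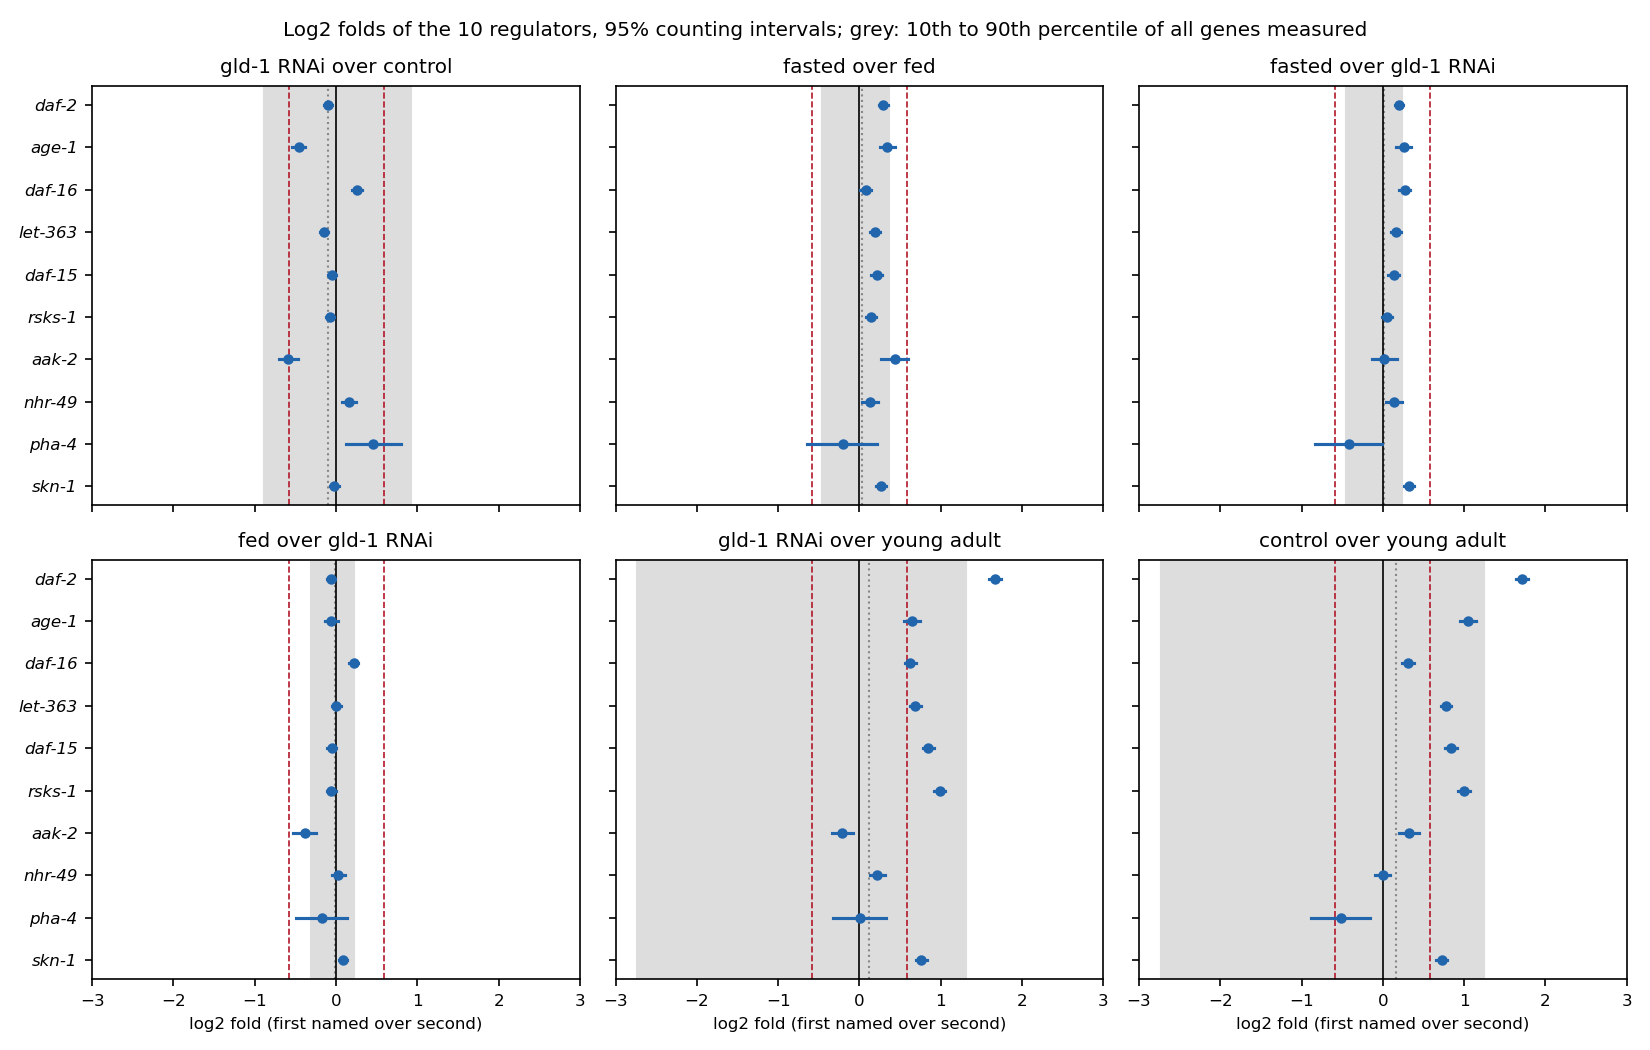
Log2 folds of the 10 regulators (points) with 95% counting intervals (lines) in the 6 comparisons, first library named over the second. Grey bands span the 10th to 90th percentile of all measured genes, dotted lines their median and dashed lines 1.5-fold. No member reaches 1.5-fold in the comparisons among libraries of gld-1 RNAi animals, where aak-2 (fasted over fed and fed over gld-1 RNAi) and age-1, daf-16 and skn-1 (fasted over gld-1 RNAi) lie beyond the band, and daf-2 lies beyond it against the young adult library.

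The wider insulin pathway was described with a list of 22 genes, of which 19 were measured in each comparison. The list includes daf-2, age-1 and daf-16. In the gld-1 RNAi over the control library 1 of 19 was at least 1.5-fold higher and 3 lower, beside 16.8% and 19.3% of all genes, and the median was -0.19. Among the lower ones were the kinase genes pdk-1 (963 normalized reads in gld-1 RNAi and 1610.4 in control, log2 fold -0.74) and akt-1 (3705 and 5938, -0.68), whose products act between DAF-2 and DAF-16. Scaled to equal totals, folds of this comparison lie higher (aak-2 at -0.46 in place of -0.59). By that shift akt-1 would fall short of 1.5-fold, so the lower count depends on the scaling. The methyltransferase gene prmt-1, whose product modifies DAF-16, was higher (22086 in gld-1 RNAi and 10815 in control, log2 fold 1.03). Fasted over fed, 1 of 19 was higher, the receptor substrate gene ist-1 (116 normalized reads in fasted and 70.0 in fed, 0.72, interval 0.29 to 1.17), and 0 were lower, beside 4.08% and 7.37% of all genes. In the control over the young adult library 10 of 19 were higher and 2 lower (33.6% and 33% of all genes), with pdk-1 furthest (1343 in control and 181 in young adult, 2.88, interval 2.65 to 3.13) and the kinase sgk-1 lowest at -1.45. Scaled to equal totals the split was 3 higher and 3 lower, beside 13.2% and 44.01% of all genes.

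Ligands of the pathway were scarce in these whole-animal libraries. Of the 40 insulin-like peptide genes, 1 (ins-38) had no read in any library, 5 reached a level of 50 normalized reads in some library, and only ins-17 did so in all 5. The count without a read was 13 in the fasted, 7 in the fed, 4 in the gld-1 RNAi, 6 in the control and 6 in the young adult library, the fasted library also being the shallowest. daf-28, a peptide that activates DAF-2 and is made in sensory neurons, stood at 181 normalized reads in the gld-1 RNAi and 19.9 in the control library (log2 fold 3.12, interval 2.50 to 3.95, on 190 and 19 reads). On the common scale it was at 139 in the fasted, 121 in the fed and 146 in the gld-1 RNAi library, against 16.6 in the control and 44.2 in the young adult library, so the libraries of gld-1 RNAi animals lay above both others. The neuronal markers, 10 of 15 of which were also higher in gld-1 RNAi over control, had summed values of 12883 in gld-1 RNAi and 8313 in control, and their part in the daf-28 value was not tested. ins-17 was likewise higher in gld-1 RNAi (124 against 70.2, log2 fold 0.81, interval 0.39 to 1.27), and fasted over fed 0 of 3 measured peptide genes were 1.5-fold apart.

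Around TOR, 17 of 17 genes of the 2 TOR complexes and of amino acid sensing were measured, with let-363, daf-15 and rsks-1 among them. In the gld-1 RNAi over the control library only lmtr-3, of the Ragulator complex that holds TOR at the lysosome, was 1.5-fold lower (702 and 1217, log2 fold -0.79) and 0 of 17 were higher, beside 19.3% and 16.8% of all genes. Fasted over fed 0 of 17 were 1.5-fold apart, beside 11.5% of all genes (median 0.19, and 0.04 over all genes). In the control over the young adult library 10 of 17 were higher and 0 lower, beside 33.6% and 33% of all genes. sinh-1 (1169 in control and 237 in young adult, interval of the log2 fold 2.09 to 2.52) and rict-1 (4959 and 1364, log2 fold 1.86, interval 1.77 to 1.95) were furthest, both subunits of TOR complex 2, and the folliculin partner gene fnip-2 was at 1.34. Scaled to equal totals 3 of the 17 were higher and 1 lower, beside 13.2% and 44.01%. In the list of cap-dependent translation 4 of 11 were at least 1.5-fold higher in gld-1 RNAi over control and 0 lower, beside 16.8% and 19.3% of all genes, led by ife-5, a germline cap-binding protein (866 in gld-1 RNAi and 204 in control, 2.08, interval 1.86 to 2.31), the ribosomal protein gene rps-6 (0.89) and ife-1 (0.63). Just short of 1.5-fold lower in that comparison was ife-3 (5498 in gld-1 RNAi and 8226 in control, -0.58). ife-5 was the list's only gene 1.5-fold apart in the fasted over the fed library, and lower (417 and 648, -0.63).

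In the AMPK list of 16 genes, 15 were measured, and in the gld-1 RNAi over the control library 3 were higher and 2 lower, shares near those of all genes (16.8% and 19.3%). With aak-1 the higher ones were the regulatory subunit gene aakg-1 (2097 in gld-1 RNAi and 1317 in control, 0.67) and crtc-1, the coactivator that AMPK phosphorylates (580.3 and 348, 0.74), and with aak-2 the lower one was mop-25.1 (-0.77). Fasted over fed, aakg-4, another regulatory subunit gene, was higher (162 in fasted and 78.6 in fed, 1.04, interval 0.66 to 1.44) and 0 of 15 were lower, beside 4.08% and 7.37% of all genes. In the control over the young adult library 5 were higher and 1, crtc-1, lower (-0.66), beside 33.6% and 33% of all genes. crh-1, the CREB factor (1761 in control and 682 in young adult, 1.37), the AMPK subunit gene aakb-2 (1.27) and par-4, the LKB1 kinase that activates AMPK (1.03), were highest. Scaled to equal totals the split was 2 higher and 6 lower, beside 13.2% and 44.01%.

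**Figure D4:**
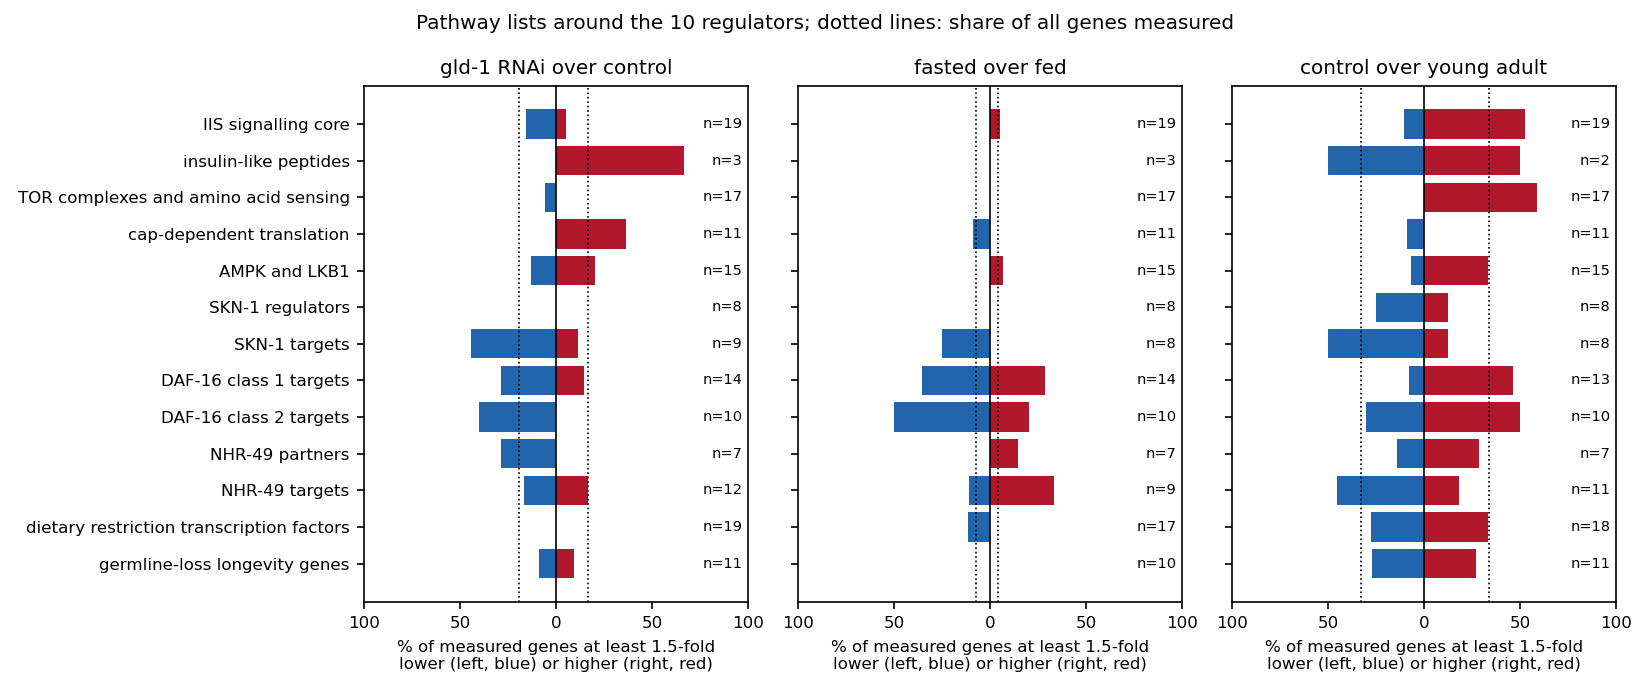
Share of the measured genes of each pathway list at least 1.5-fold higher (right) or lower (left) in 3 comparisons, with the number measured and, dotted, the share over all measured genes. Fasted over fed, 0 of 17 genes of the TOR list and 1 of 19 of the insulin list were apart, beside 11.5% of all genes. Of the class 1 targets of DAF-16, 9 of 14 were apart, some higher and some lower.

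Target lists of the transcription factors were described next, with the caution that their genes answer to other regulators as well. NHR-49 has acs-2, a mitochondrial fatty acyl-CoA synthetase, as its best known fasting target. acs-2 stood at 2318 normalized reads in the fasted and 387 in the fed library (log2 fold 2.58, interval 2.44 to 2.72). Of 9 measured NHR-49 targets 3 were higher and 1 lower, beside 4.08% and 7.37% of all genes, the others being the glyoxylate enzyme gene icl-1 (8247 in fasted and 5036 in fed, 0.71), acs-11 (0.65) and, lower, the desaturase gene fat-5 (1037 and 1608, -0.63), and the list's median was -0.16. On the common scale acs-2 stood at 2647 in the fasted, 450.1 in the fed and 380 in the gld-1 RNAi library, against 289 in the control and 4342 in the young adult library, so the young adults, which had food, lay above the fasted animals. The flavin monooxygenase gene fmo-2, another target, had 20 reads in the fasted and 9 in the fed library, too few to be measured there. The desaturase fat-7 is listed at 0 in all 5 libraries, as are scl-1, gpd-2, hsp-16.1 and hsp-16.49. Of these gpd-2, hsp-16.1 and hsp-16.49 have near-identical copies, and whether the counting lost their reads was not tested.

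DAF-16 targets fall into class 1, which DAF-16 activates when insulin signalling is low, and class 2, which is repressed then. The class 1 list includes daf-16 itself. Fasted over fed, 4 of 14 measured class 1 genes were at least 1.5-fold higher and 5 lower (4.08% and 7.37% of all genes). Higher were the small heat shock gene sip-1 (29357 in fasted and 16763 in fed, 0.81), the linker histone gene hil-1 (309 and 149, 1.05), dod-6 (1155 and 499, 1.21) and icl-1. Lower by the most were the lysozyme genes lys-7 (1251 and 13940, log2 fold -3.48, interval -3.58 to -3.38) and lys-8 (445 and 1280.2, -1.52) and the metallothionein gene mtl-2 (-1.22). sod-3, the class 1 gene most used as a reporter, had 20.8 normalized reads in the fasted and 22.4 in the fed library on the common scale, too few to be measured. Of 10 measured class 2 genes 2 were higher and 5 lower fasted over fed, lowest dod-19 (113 in fasted and 1155 in fed, -3.34) and dod-23 (-1.75), and highest the peptide transporter gene pept-1 (120 and 51.4, 1.21). Scaled to equal totals 3 of the 9 then measured were lower. Intestinal markers, a list that shares mtl-2 and pept-1 with these targets, had 3 higher and 5 lower of 10 measured (summed values 9922 in fasted and 11070 in fed), and their part was not tested.

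**Figure D5:**
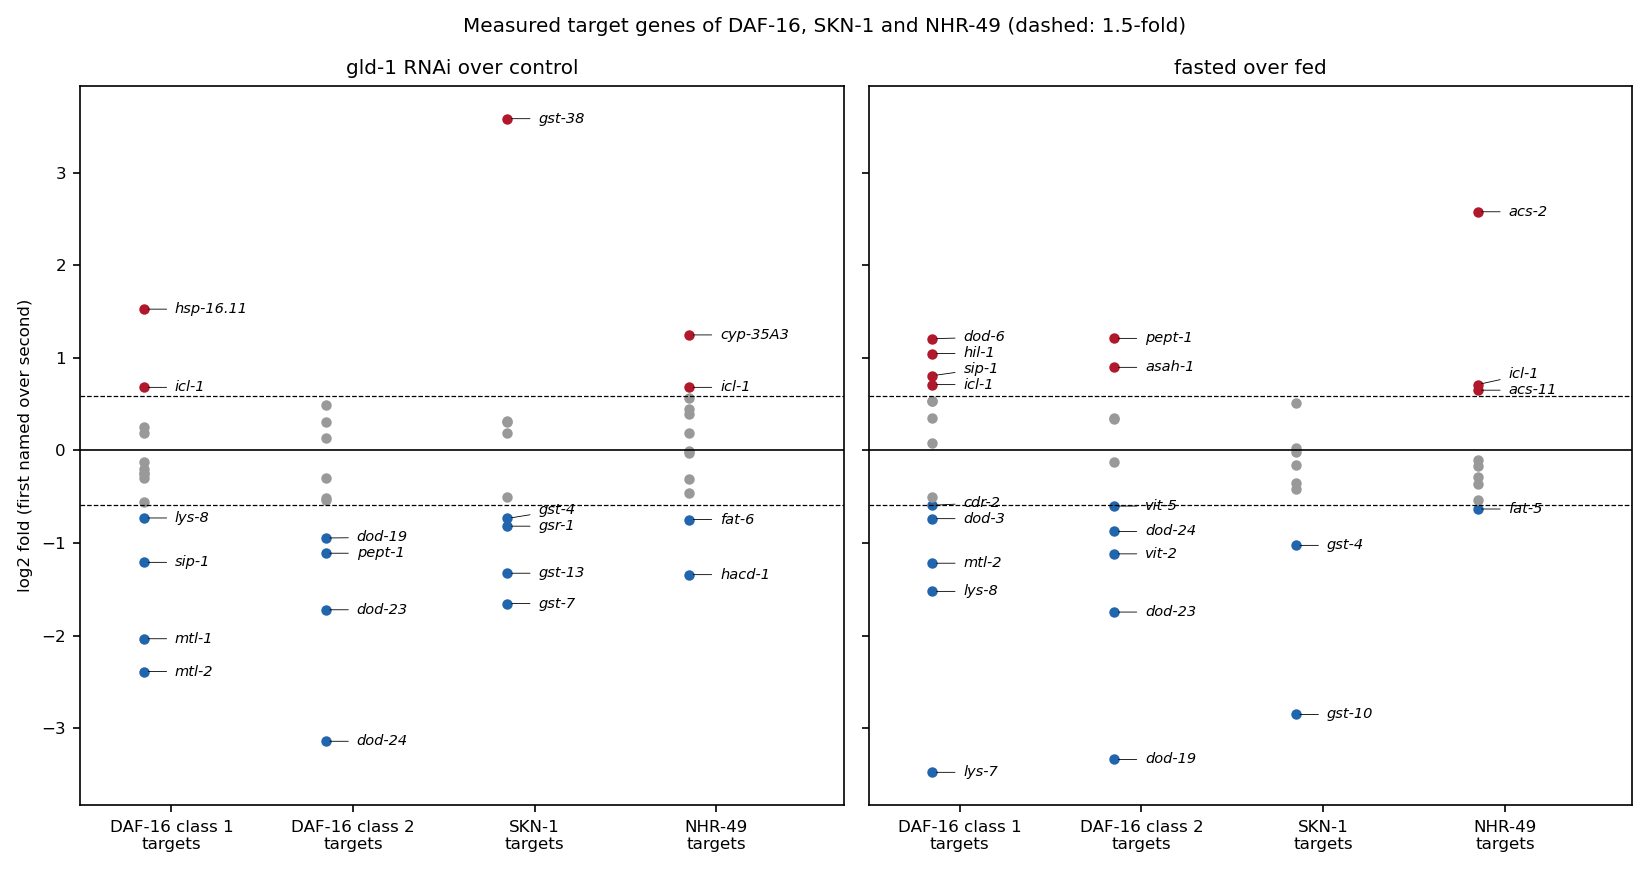
Log2 folds of the measured target genes of DAF-16, SKN-1 and NHR-49 in the gld-1 RNAi over the control library (left) and the fasted over the fed library (right); named points are at least 1.5-fold apart. acs-2 (2.58) is highest and lys-7 (-3.48) lowest in the fasted over the fed library.

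In the gld-1 RNAi over the control library, class 1 genes numbered 2 higher and 4 lower of 14, not far from the shares of all genes (16.8% and 19.3%), with the metallothioneins mtl-2 (98.3 in gld-1 RNAi and 519 in control, -2.39) and mtl-1 (296 and 1214, -2.03) and sip-1 (-1.21) among the lower. Of 10 class 2 genes 0 were higher and 4 lower, lowest dod-24 (93.5 and 833, -3.14, interval -3.47 to -2.85). Beside these, 10 of 13 intestinal markers were lower (summed values 13283 in gld-1 RNAi and 23535 in control), whose part was not tested. SKN-1 targets numbered 1 higher and 4 lower of 9, beside the same shares of all genes, the glutathione transferase genes gst-7 (1414 and 4451, -1.65) and gst-13 (-1.33) being lowest and gst-38 highest (124 and 9.43, on 130 and 9 reads, 3.58, interval 2.75 to 4.88). gcs-1, the glutathione synthesis gene and usual SKN-1 reporter, stood at 2439 in the fasted, 2430.0 in the fed, 2434 in the gld-1 RNAi, 2223 in the control and 1886 in the young adult library. The libraries of gld-1 RNAi animals were nearly equal in it. Fasted over fed, 0 of 8 measured SKN-1 targets were higher and 2 lower (4.08% and 7.37% of all genes), gst-10 (9 reads in fasted and 136 in fed, -2.85, interval -4.11 to -1.98) and gst-4 (-1.02).

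In the control over the young adult library 6 of 13 measured class 1 genes were higher and 1, icl-1 (-1.72), lower, beside 33.6% and 33% of all genes, with mtl-1, lys-7 and dod-3 (690.1 in control and 92.9 in young adult, 2.88) highest. mtl-1 had 1159 reads in the control and 1 in the young adult library (interval of the log2 ratio 7.36 to 15.14), and lys-7 had 19362 reads in the control and 236 in the young adult library (6.01). Of 10 measured class 2 genes 5 were higher and 3 lower, dod-24 (695 in control and 85.2 in young adult, 3.01) and dod-23 (2.20) highest and pept-1 lowest (157 and 2559, -4.02). Scaled to equal totals class 1 had 6 higher and 2 lower and class 2 had 2 higher and 3 lower, beside 13.2% and 44.01%. On the common scale, of 11 measured NHR-49 targets 2 were higher and 5 lower, beside 33.6% and 33% of all genes. Among them fat-5 was higher (1814 and 207, 3.13, interval 2.92 to 3.36), and acs-2 lower (-3.90). Of 8 measured SKN-1 targets 1 was higher and 4 lower, beside the same shares of all genes. Intestinal markers numbered 3 higher and 8 lower of 13, beside those shares, with a median of -1.23 (summed values 19624 in control and 70651 in young adult). Body wall muscle, hypodermal and pharyngeal markers had medians of -2.87, -3.24 and -3.64. These stood beside medians of 0.52 for class 1, 0.46 for class 2, -0.53 for NHR-49 targets and -0.59 for SKN-1 targets. The part of these tissues was not tested.

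The genes with the most similar profiles were sought among 4904 named genes with at least 100 normalized reads in all 5 libraries. By Euclidean distance of centred log2 profiles over the 5 libraries, hcp-6 was nearest to daf-2 (0.09), rfc-3 to age-1 (0.04), spat-2 to daf-16 (0.09), nfx-1 to let-363 (0.04), magi-1 to daf-15 (0.05) and knl-1 to rsks-1 (0.03). hut-1 was nearest to aak-2 (0.10), ima-3 to nhr-49 (0.06), cest-26 to pha-4 (0.09) and seu-1 to skn-1 (0.09). strd-1, the pseudokinase partner of PAR-4, was the next nearest gene to let-363 (0.06).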

How the data were processed

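Per the submitters' processing notes the tools were TopHat, HTSeq and DESeq, with no version. No source used here names the genome build, and coordinates are left out for that reason. Each of the 5 tables the authors deposited covers 1 pair of libraries. Per the file headers it holds normalized signal for both (reads per gene over a size factor), their mean, the fold ratio, the log2 fold change, a p-value and an adjusted p-value. The columns are headed A and B, so libraries were assigned by the order of names in each table, following how DESeq orders its columns. Whole reads came back for 100% of the values above 0 (within 0.1 read), and libraries that recur gave equal reads (0 genes differed).

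The members and the 13 pathway and 8 marker lists were chosen with earlier results of these data known. Of 330 list entries 325 matched. Names came from RefSeq locus tags and Ensembl release 115 (WBcel235), which also gave exon lengths. Folds are log2 of the first library's normalized value plus 1 over the second's plus 1, which understates low genes, kept where the mean was at least 50. Genes at least 1.5-fold apart were counted. The common scale divides recovered reads by median-of-ratios size factors, and control over young adult rests on it alone. A lone library per group leaves a count model without residual degrees of freedom, so none was fitted. Intervals of read ratios and shares are exact (Clopper-Pearson, 95%), and those of levels exact Poisson. Both cover counting error only. Reads without molecular identifiers are not independent molecules, so the intervals may be too narrow even for that error. Named genes were the members, gld-1, and up to 3 genes per list, direction and comparison. aak-1 ratios, gcs-1, sod-3, fmo-2, cyp-35A3 fasted over fed, ife-3, tcer-1, kri-1, daf-9 and genes at 0 were named after their values were seen. 1 gene of the insulin list is counted there but not reported here by name. age-1, let-363, daf-15, aak-2 and skn-1 overlap protein-coding genes on the opposite strand. Alternatives were 3 scalings, pseudocounts of 10 and 0, minimum means of 10 and 200, and 2-fold. Python 3.11.15, pandas 2.3.3, numpy 2.4.6 and scipy 1.17.1 were used, and the calculations were tested on simulated data.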

Additional observations from a re-analysis of the deposited data

How the results depend on the processing

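Folds of single members were recomputed under 3 other scalings (2 for control over young adult), 2 other pseudocounts and, for 2 comparisons, through the gld-1 RNAi library. Of 170 values under other scalings 93 stayed within their counting interval and 77 did not, 22 changed sign and 20 crossed 1.5-fold, with 0 sign changes among members 1.5-fold apart. Of 100 under other pseudocounts 1 crossed 1.5-fold (aak-2, gld-1 RNAi over control), and the 20 indirect ones stayed within their intervals. In gld-1 RNAi over control the members' median was 0.071 scaled to equal totals, 0.076 to equal upper quartiles and 0.024 to totals without rRNA, and the count apart was 0 without rRNA, with a pseudocount of 10 and at 2-fold. At equal totals and upper quartiles that count was 1, pha-4 (0.59 and 0.60) in place of aak-2. Fasted over gld-1 RNAi the median was 0.25 at equal upper quartiles, and fed over gld-1 RNAi it was -0.14 at equal totals. In gld-1 RNAi over young adult it was 0.24 at equal totals (2 members apart) and 0.78 at equal upper quartiles, and 1 member was 2-fold apart. In control over young adult it was 0.25 at equal totals (2 apart) and 0.67 without rRNA, and 2 members were 2-fold apart. The causes were not tested. At minimum means of 10 and 200 the share of all genes 1.5-fold apart fasted over fed was 18.3% and 6.82%. No paired analysis was possible because each group has 1 library, and for the same reason no library could be left out.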

Other observations

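In animals that lack a germline, a set of genes links the gonad to longevity in the gut, and 14 of these were matched here, among them 4 of the regulators above (daf-16, skn-1, nhr-49 and pha-4). Of 11 measured in the gld-1 RNAi over the control library, 1 was at least 1.5-fold higher and 1 lower, beside 16.8% and 19.3% of all genes. Higher was din-1, a corepressor partner of the steroid receptor DAF-12 (4897 normalized reads in gld-1 RNAi and 2903 in control, log2 fold 0.75), and lower was daf-36, an enzyme gene of steroid hormone synthesis (36.3 and 81.7, -1.15). Scaled to equal totals 3 were higher, beside 20.7% of all genes. Fasted over fed, 0 of 10 measured were 1.5-fold apart, beside 11.5%. The elongation factor gene tcer-1, which works with DAF-16 in such animals, stood on the common scale at 4036 in the fasted, 4649.9 in the fed, 4223 in the gld-1 RNAi, 4268 in the control and 2400.0 in the young adult library. kri-1 and daf-9 were too low to be measured.

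Regulators around the transcription factors were also described. In the list of SKN-1 and its regulators, 8 genes with skn-1 itself, 0 were 1.5-fold apart in gld-1 RNAi over control (36.1% of all genes) or in fasted over fed (11.5%). In the list of NHR-49 and its partners, 7 genes with nhr-49 itself, 0 were higher and 2 lower in gld-1 RNAi over control. Beside them stood 16.8% and 19.3% of all genes. The 2 were nhr-13 (211 and 383, -0.86) and nhr-66 (-0.62). At equal totals, where folds of this comparison lie higher, nhr-66 would fall short of 1.5-fold. In fasted over fed nhr-13 was the only gene of the list apart, and it was higher (181 and 101, 0.84), beside 4.08% of all genes. A further list held 19 transcription factors of dietary restriction, among them daf-16, skn-1, nhr-49 and pha-4. Of these factors 0 were 1.5-fold apart in gld-1 RNAi over control, or 2 when scaled to equal totals (34.9% of all genes). Fasted over fed, 2 of 17 measured were lower, beside 7.37% of all genes, namely mdl-1 (510 and 774, -0.60) and mxl-3 (302 and 495, -0.71). Of the remaining marker lists in fasted over fed, 1 of 15 germline markers was higher, and 1 of 4 measured sperm markers and 1 of 6 hypodermal markers were lower. Higher were also 2 of 3 pharyngeal markers and 1 of 16 neuronal markers. The pharyngeal list shares dod-6, which was among the higher ones, with the class 1 targets of DAF-16. The shares over all genes were 4.08% higher and 7.37% lower.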
